A study of Mus musculus with 2 samples.

Results

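Chemokines are small secreted proteins that guide leukocytes and other cells along gradients. They act through G protein-coupled receptors of the Ccr, Cxcr, Cx3cr and Xcr families, while the atypical receptors (Ackr) bind chemokines without G protein signalling and mostly scavenge them. In the heart some chemokines act at steady state, Cxcl12 in vessels and stroma among them, and many others are switched on in injured or inflamed tissue. The genes described are the mouse genes with symbols beginning Ccl, Cxcl, Ccr, Cxcr or Ackr followed by a digit, together with Cx3cl1, Cx3cr1 and Xcr1, that are protein coding and listed on chromosomes 1 to 19. The rule found 60 genes, of which Ccl21c has scaffold rather than chromosome coordinates in the gene table and was not scored. The 59 others (24 CC ligands, 12 CXC ligands, 11 CC receptors, 5 CXC receptors, 4 atypical receptors and the CX3C and XC genes Cx3cl1, Cx3cr1 and Xcr1) stand among 20558 protein-coding genes on those chromosomes.

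The data are peaks from chromatin immunoprecipitation and sequencing (ChIP-seq) with an antibody to H3R17me2a, a histone H3 arginine dimethylated asymmetrically, which is the mark that the arginine methyltransferase Carm1 of the series title deposits. Both samples are wild-type mouse hearts at postnatal day 21, without treatment or a second genotype. One label names cardiac fibroblasts and the extraction protocol names frozen heart tissue, the titles read carm1 beside a wild-type genotype, and the design calls the hearts neonatal. Each sample has 1 deposited peak list, called list 1 (21497 peaks) and list 2 (38012 peaks).

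The lists were not treated as replicates. Of 20878 list 1 peaks that overlapped a list 2 peak, 42.3% had their summit on the very same base and 70.2% within 10 bp. The lists were therefore counted as 1 sample with 2 peak calls, and no value below carries a replicate error or a p-value from a test. Whether the lists come from separate hearts was not tested. The lists end at different depths: list 1 reaches down to a −log10 p of 5.0 and list 2 to 2.01, with 51.3% of its peaks below 5. The number of reads at a summit was recovered from the deposited fold and p. Its median was 26 for list 1 peaks and 15 for those of list 2. Of the cell type markers, a gene-end peak in both lists was found at 8 of 10 cardiomyocyte genes (not at Nppa and Ryr2), at 0 of 10 fibroblast genes, Pdgfra and Col1a1 included, at 0 of 10 endothelial genes, Pecam1 and Cdh5 included, and at 1 of 14 leukocyte genes. That gene was the macrophage gene Cd68, whereas Ptprc and Adgre1 had none. The Cd68 call was lost at a minimum −log10 p of 5 in both lists. A list 1 peak that overlaps a list 2 peak lay in the body of 9 of 10 cardiomyocyte and 2 of 10 endothelial genes. It lay in 0 of 10 fibroblast and 0 of 14 leukocyte genes. Calls were thus most frequent at the cardiomyocyte genes, and which of the labels is right was not tested. In bulk tissue, few cells of a type and little mark per cell cannot be told apart, and the part of cell composition in the results below was not tested.

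Few chemokine or receptor genes had an H3R17me2a peak at their ends. A gene was called at an end when list 1 and list 2 each placed a peak over a window reaching 1000 bp to both sides of its first or last base. Cxcl12, Ccl20 and Xcr1 were called, 3 of 59 genes (5.08%), where 8284 of 20558 protein-coding genes (40.3%) were called. Where the summit also had to lie nearer to the gene than to another protein-coding gene, 2 were called, Cxcl12 and Ccl20, against 34.8% of all genes. A shared peak, meaning a list 1 peak that overlaps a list 2 peak, lay in the body of 4 genes, Cxcl12, Ackr3, Ccl28 and Xcr1 (6.78%), against 44.8% of all genes. In 47 of 59 genes (79.7%) neither list had any peak at an end or in the body, which held for 42.0% of all genes.

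The counts of members stayed below the share of all genes under each other setting, though list 2 alone gave more. With a minimum −log10 p of 5 the same numbers of members were called (34.4% of genes at an end, 29.3% by the nearer gene, 39.1% in the body), and likewise at a −log10 q of 2 (35.5%, 30.3% and 40.3%), in the upper 50% of each list by fold (12.7%, 10.5% and 19.6%) and with an overlap of 100 bp (39.9%, 34.4% and 43.2%). With a 500 bp window 2 members were called at an end (37.8% of genes) and 1 by the nearer gene (32.8%), and with 3000 bp 6 (44.7%) and 4 (37.5%). List 1 alone gave 3 members at an end (40.8%), 2 by the nearer gene (35.6%) and 4 in the body (45.4%), whereas list 2 alone gave 11 (48.0%), 9 (42.3%) and 9 (55.6%). In the RefSeq promoter window 0 of 45 members were called (38.7% of genes with a promoter) and within 1000 bp of a RefSeq start 1, Cxcl12 (42.2%).

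**Figure D1:**
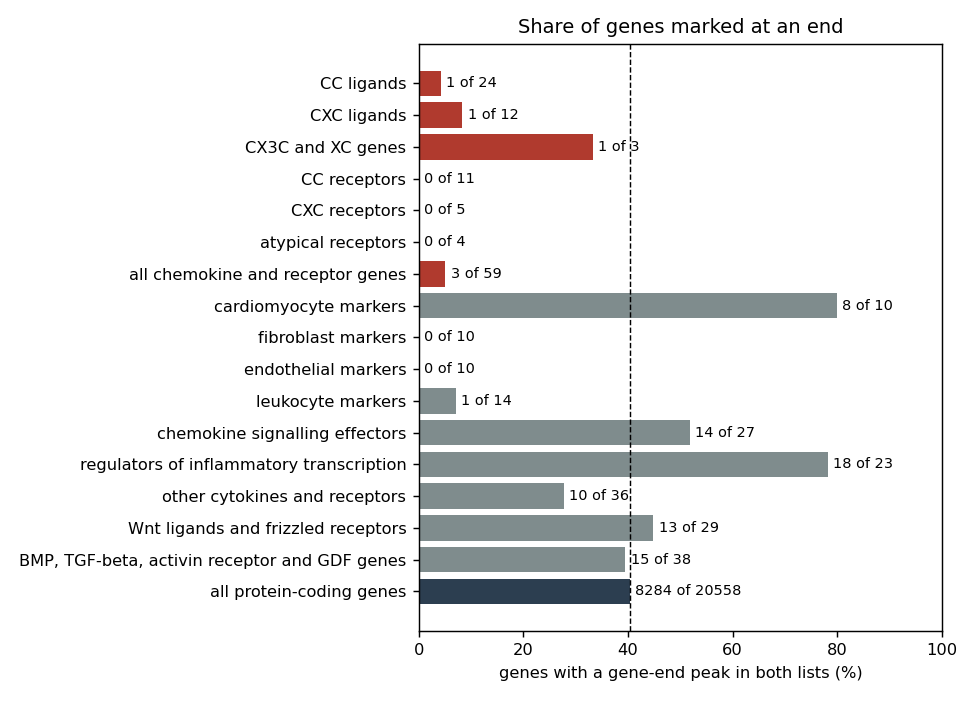
Horizontal bars give the percentage of genes with a gene-end peak in both lists, with the counts beside each bar, for the chemokine and receptor families (red), other gene lists (grey) and all protein-coding genes (dark), whose share is also drawn as a dashed line. Chemokine and receptor genes stood at 3 of 59, inflammatory regulators at 18 of 23 and all genes at 40.3%.

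The promoters of 6 genes are printed to show their base composition. None of these windows held a peak of both lists. RefSeq promoters (GRCm38.p6, the assembly with the coordinates of mm10) run from 250 bp before to 50 bp after a gene's start, and 45 of the 59 genes had one. Cxcl12, Ccl20 and Xcr1 are shown because they were called at an end, Ackr3 because a list 2 peak lies on its start, and Ccr1 as an unmarked gene of the largest receptor cluster. Capitals mark CpG dinucleotides in these 5 sequences, which are written along the strand of the gene. Cxcl12 (chr6:117168285-117168584, plus strand) holds 20 CpG and Ackr3 (chr1:90203730-90204029, plus strand) 8. Xcr1 (chr9:123861980-123862279, minus strand) holds 6, Ccl20 (chr1:83116516-83116815, plus strand) 3 and Ccr1 (chr9:123968643-123968942, minus strand) 1.
Cxcl12: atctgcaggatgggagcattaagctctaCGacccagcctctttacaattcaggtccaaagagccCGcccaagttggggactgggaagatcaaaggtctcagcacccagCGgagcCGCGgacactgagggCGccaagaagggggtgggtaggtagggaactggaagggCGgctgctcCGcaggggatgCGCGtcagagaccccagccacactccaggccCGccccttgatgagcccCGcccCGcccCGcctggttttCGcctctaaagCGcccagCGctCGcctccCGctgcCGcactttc
Ackr3: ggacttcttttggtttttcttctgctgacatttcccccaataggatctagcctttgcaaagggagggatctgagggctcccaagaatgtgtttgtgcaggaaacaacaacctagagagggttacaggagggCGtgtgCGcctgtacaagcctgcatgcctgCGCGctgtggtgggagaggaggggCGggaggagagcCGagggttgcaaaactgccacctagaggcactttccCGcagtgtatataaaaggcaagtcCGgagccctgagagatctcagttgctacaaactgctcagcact
Xcr1: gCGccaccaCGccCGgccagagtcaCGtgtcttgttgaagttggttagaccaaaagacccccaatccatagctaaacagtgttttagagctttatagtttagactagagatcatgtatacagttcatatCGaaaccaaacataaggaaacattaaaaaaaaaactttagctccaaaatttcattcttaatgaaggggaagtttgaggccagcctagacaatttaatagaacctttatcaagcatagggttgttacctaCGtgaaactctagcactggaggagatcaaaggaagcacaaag
Ccl20: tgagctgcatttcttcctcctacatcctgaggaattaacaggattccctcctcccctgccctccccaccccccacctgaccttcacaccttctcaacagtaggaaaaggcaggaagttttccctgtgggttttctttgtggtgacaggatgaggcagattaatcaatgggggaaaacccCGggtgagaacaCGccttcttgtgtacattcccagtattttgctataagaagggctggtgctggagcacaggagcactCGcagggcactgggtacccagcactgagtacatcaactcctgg
Ccr1: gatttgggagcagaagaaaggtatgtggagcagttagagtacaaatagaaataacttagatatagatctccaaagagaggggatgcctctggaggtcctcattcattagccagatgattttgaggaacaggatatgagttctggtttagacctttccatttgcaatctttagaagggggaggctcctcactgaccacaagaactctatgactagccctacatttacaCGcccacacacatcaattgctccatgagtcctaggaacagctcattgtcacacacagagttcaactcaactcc

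The promoter of Cxcl10 (chr5:92348840-92349139, minus strand), a chemokine induced by interferon, is shown with the matches of 2 motifs in capitals. It had no peak in either list. The first capitals, which begin at -213 bp from the start, match an interferon response element-like motif read on the reverse strand (GAAA, 2 bases of any kind, GAAA). The second, which begin at -159 bp, match a kappa B-like motif of the NF-κB factors (GGGA, 2 bases of any kind, TTCC). Cxcl10 and Ackr3 were chosen for display after their values were seen.
Cxcl10: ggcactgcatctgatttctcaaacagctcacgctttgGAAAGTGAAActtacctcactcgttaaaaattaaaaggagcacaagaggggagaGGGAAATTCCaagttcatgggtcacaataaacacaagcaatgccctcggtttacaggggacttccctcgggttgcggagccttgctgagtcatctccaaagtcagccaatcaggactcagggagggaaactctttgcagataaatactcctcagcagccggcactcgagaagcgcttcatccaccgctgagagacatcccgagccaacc

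Among the ligands, Cxcl12 alone had a peak of both lists within 1000 bp of its 5′ end, as far as strand was known. Cxcl12, the ligand of Cxcr4 and Ackr3 and a retention signal for many cell types, spans chromosome 6 from 117168535 to 117181368. The list 1 peak had a fold enrichment over background of 5.001 at its summit with a −log10 p of 8.41 and 14 reads. The list 2 peak had a fold of 4.77, a −log10 p of 5.86 and 14 reads. A lower fold was found in 51.1% of list 1 peaks and 75.8% of list 2 peaks. The summits lay 360 and 361 bp downstream of the start, inside the gene and beyond the promoter window printed above. Over genes with a single RefSeq start and a peak within 1000 bp of it, the median summit lay 14 bp upstream of the start in list 1 (5539 genes, quartiles -99 and 101 bp) and 16 bp upstream in list 2 (6366 genes), so the Cxcl12 summit sits farther downstream than the upper quartile. The nearest end of another protein-coding gene was 451913 bp from the list 1 summit.

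Ccl20, the ligand of Ccr6, was marked past its 3′ end instead. It spans chromosome 1 from 83116766 to 83119167 on the plus strand, and the summits of both lists fell on base 83119919, 752 bp beyond the 3′ end. The fold was 8.96 with 17 reads in list 1 and 6.06 with 18 reads in list 2, higher than 90.8% and 87.1% of the peaks of the respective lists. No other protein-coding gene ended within 39823 bp of that base. Among genes over 5 kb with a known strand that were marked at an end in both lists, 90.2% (5294 of 5870) were marked at the 5′ end alone and 3.44% (202) at the 3′ end alone. Ccl20, with a length of 2.40 kb, is outside that set, and no such share was computed for shorter genes. With a 500 bp window Ccl20 had no gene-end peak in either list.

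Ccl28, a chemokine of mucosal tissues that binds Ccr10 and Ccr3, held a shared peak in its body and none at its ends. The summits of both lists fell on base 119631911 of chromosome 13, 8092 bp downstream of its 5′ end, well inside the gene. The fold was 6.75 with 26 reads in list 1 and 4.48 with 22 reads in list 2. The peaks were 234 and 223 bp wide, where the list medians are 460 and 459 bp.

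Among the receptors, Ackr3 carried the most peaks. Ackr3 scavenges Cxcl12 and is needed for normal heart valve development in mice. It spans chromosome 1 from 90203980 to 90215724, and no other protein-coding gene ends within 48973 bp of the summits described. List 1 placed 3 peaks in its 5′ part, with summits 1297, 3403 and 4553 bp downstream of the start, folds of 5.99, 4.25 and 4.601 and 18, 16 and 22 reads. List 2 placed a peak with the fold 3.98 and 18 reads at 1299 bp, and a single peak of 2048 bp with its summit at 4553 bp (fold 5.07, 23 reads) over the other pair. A further peak of both lists, at base 90217446, lay 1722 bp beyond the 3′ end with folds of 5.33 and 5.16. List 2 alone also had summits 1571 bp upstream of the start (fold 3.49) and 4591 bp beyond the 3′ end (fold 4.997). The start itself had a peak in list 2 alone, 14 bp upstream, with a fold of 2.97, a −log10 p of 8.19 and 56 reads, and so Ackr3 was not called at an end in both lists. The shared peaks in the body of Ackr3 thus had their summits in its first 5 kb. The peak with the most reads, 56, lay on the start, in list 2 alone.

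**Figure D2:**
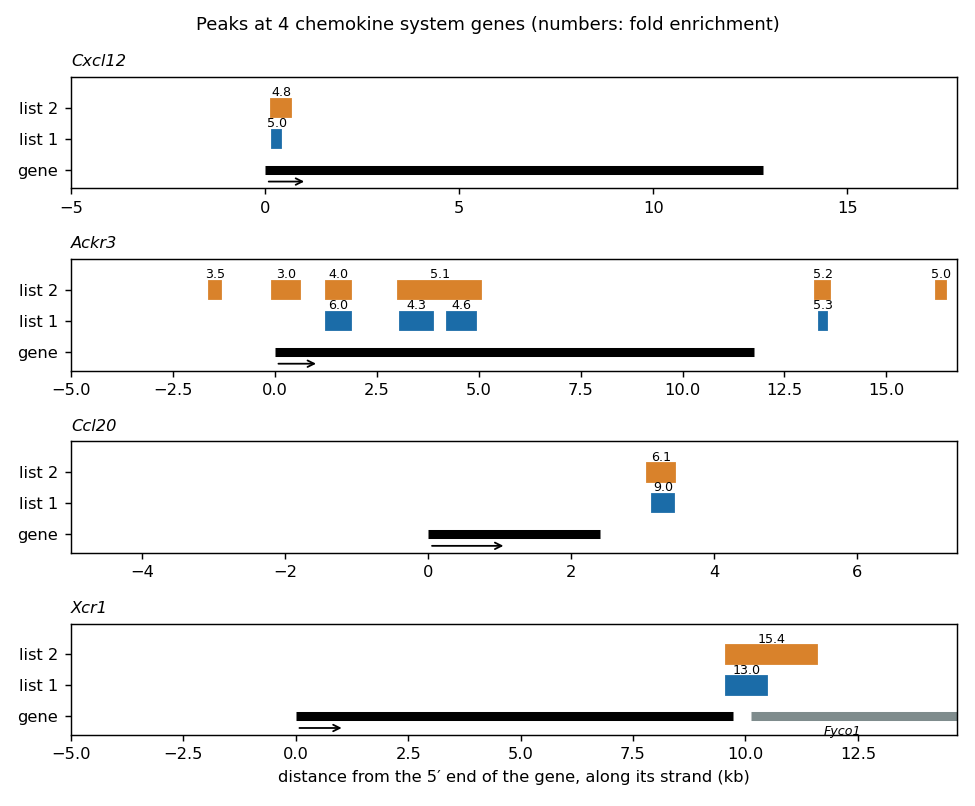
Each panel draws 1 gene as a black bar along its strand, with the distance from its 5′ end in kb on the x axis, an arrow for its direction and the peaks within 5 kb of it as blue (list 1) and orange (list 2) boxes with their fold enrichment. The Cxcl12 peaks lie just inside the start, the Ccl20 peaks lie beyond the 3′ end, and the Xcr1 peaks lie on the start of Fyco1 (grey). The Ackr3 peaks spread over its 5′ part, with others before its start and beyond its 3′ end.

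The peak with the highest fold at any of these genes lay nearer to a neighbour. Xcr1, the receptor of Xcl1 on cross-presenting dendritic cells, spans chromosome 9 from 123852315 to 123862029 on the minus strand. The list 1 peak at its 3′ end had a fold of 13.004, a −log10 p of 35.4 and 38 reads, and the list 2 peak a fold of 15.4, a −log10 p of 44.7 and 73 reads. These folds exceed those of 97.9% and 99.4% of the peaks of the lists. The summits lay 312 and 323 bp beyond the 3′ end of Xcr1 but only 104 and 93 bp from the end of Fyco1 (123789500 to 123851899, also on the minus strand), an adaptor for the transport of autophagosomes, which therefore starts under the peak. The Xcr1 start, 10026 bp from the list 1 summit, had no peak in either list.

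Ccl25, a thymic and intestinal chemokine that binds Ccr9, also had a peak nearer to a neighbour, in list 2 alone and at its own start, where the genes run in opposite directions. Its span (chromosome 8, 4325205 to 4360020, plus strand) begins just after that of Elavl1 (4284781 to 4325140, minus strand), which encodes an RNA-binding protein. The list 2 summit lay 1 bp from the Elavl1 start and 66 bp from Ccl25, with a fold of 5.56, a −log10 p of 67.7 and 268 reads. List 1 held no peak there.

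The other gene-end peaks in list 2 alone were weak by their −log10 p. Besides Ccl25 and Ackr3 they were found at Cx3cl1, Ccl26, Ccr10, Ccl27a, Ccl27b and Ccl21b, with −log10 p between 2.04 and 4.10, and 5 of these 6 had a q above 0.05. Cx3cl1, the membrane-bound ligand fractalkine, had a fold of 2.57 with 15 reads 53 bp downstream of its start, and Ccl26 a fold of 3.90 with 9 reads. By fold, the Ccl26 peak exceeded 58.2% of list 2 peaks, the Ackr3 start peak 28.3% and the rest of these weak peaks 11.5% or less. At Ccr10, the receptor of Ccl27 and Ccl28, the peak had a fold of 2.31 with 32 reads and lay inside the overlapping gene Cntnap1. Ccl27a (fold 2.23), Ccl27b (2.18) and Ccl21b (1.49) belong to a duplicated region of chromosome 4 whose copies are nearly identical, so reads there cannot be assigned with certainty, and the absence of peaks at Ccl21a and Ccl21d is equally uncertain. Peaks outside the window but within 5000 bp lay near Cxcr5, Cxcl17, Cxcl16, Ccr10, Ccl21b, Ccl24, Ccl26 and Xcr1, besides those at Ackr3. The summits near Cxcl17, Cxcl16 and Ccr10 lay nearer to Lipe, Med11 and Plekhh3, respectively. The list 1 summits near Cxcr5 lay 1673 and 2583 bp from Cxcr5, inside the span of Bcl9l.

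**Figure D3:**
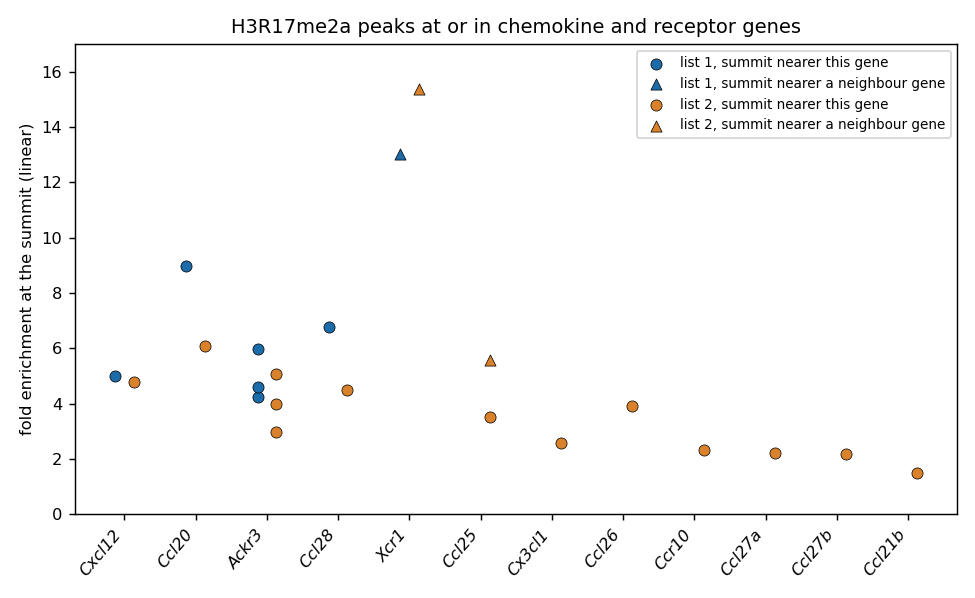
Points give the linear fold enrichment at the summit of every peak at an end or in the body of a chemokine or receptor gene, in list 1 (blue) and list 2 (orange), as circles where the summit is nearer to that gene and triangles where it is nearer to another. The Xcr1 peaks (13.004 and 15.4) stand highest and lie nearer to Fyco1, and the genes from Cx3cl1 to Ccl21b have list 2 peaks only.

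Most ligands had no peak in either list at an end or in the body. On chromosome 11 these were Ccl2, Ccl7, Ccl11, Ccl12, Ccl8 and Ccl1, monocyte and eosinophil attractants in 1 cluster, and Ccl5, Ccl9, Ccl6, Ccl3 and Ccl4 in another. On chromosome 5 they were Cxcl5, Cxcl3, Cxcl15, Cxcl1 and Cxcl2, the group that includes the neutrophil attractants, together with Cxcl9, Cxcl10 and Cxcl13 farther along. Ccl17, Ccl19, Ccl21a, Ccl21d, Ccl22, Ccl24, Cxcl14, Cxcl16 and Cxcl17 had none at an end or in the body. Among the signalling receptors, Cxcr1, Cxcr2, Cxcr4, Cxcr5, Cxcr6, Ccr1, Ccr1l1, Ccr2, Ccr3, Ccr4, Ccr6, Ccr7, Ccr8, Ccr9 and Cx3cr1 had none. The atypical receptors Ackr1, Ackr2 and Ackr4 had none. Cxcr4, the signalling receptor of Cxcl12, lay 171 kb from the nearest shared peak.

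Several clusters held no peak, but how often spans of their length hold none elsewhere was not counted. With members joined where less than 200 kb separated them, 30 genes fell into 6 clusters of 3 or more that span 980 kb in all. They hold 5 shared peaks, or 5.10 per Mb, against 8.59 per Mb over chromosomes 1 to 19. List 2 peaks numbered 11 in the clusters, or 11.2 per Mb, against 15.6 per Mb over those chromosomes. The chromosome 11 clusters (144 and 139 kb) and the Cxcl cluster of chromosome 5 (147 kb) held no peak of either list. The cluster of Ccl22, Cx3cl1 and Ccl17 on chromosome 8 (66.4 kb) held no shared peak, and the 123 kb around Ccl27b, Ccl19 and Ccl21a on chromosome 4 held 2, neither at nor in a member. The receptor cluster on chromosome 9 (360 kb, with Ccr9, Cxcr6 and Xcr1 among its genes) held the other 3, among them the Fyco1 peak. The nearest non-member genes on either side of the members and their clusters were called at an end in 25 of 66 cases (37.9%), close to the 40.3% of all genes.

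The median distance from a gene's span to the nearest shared peak was 49.1 kb over the 59 genes (quartiles 19.6 and 104 kb) and 4.06 kb over all genes. It exceeded 20 kb in 44 of 59 genes (74.6%) and in 39.96% of all genes. Distances over 100 kb were found in 16 members (27.1%) and in 22.3% of all genes. The farthest member was Ackr1, the Duffy receptor of red cells and venules, at 699 kb.

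**Figure D4:**
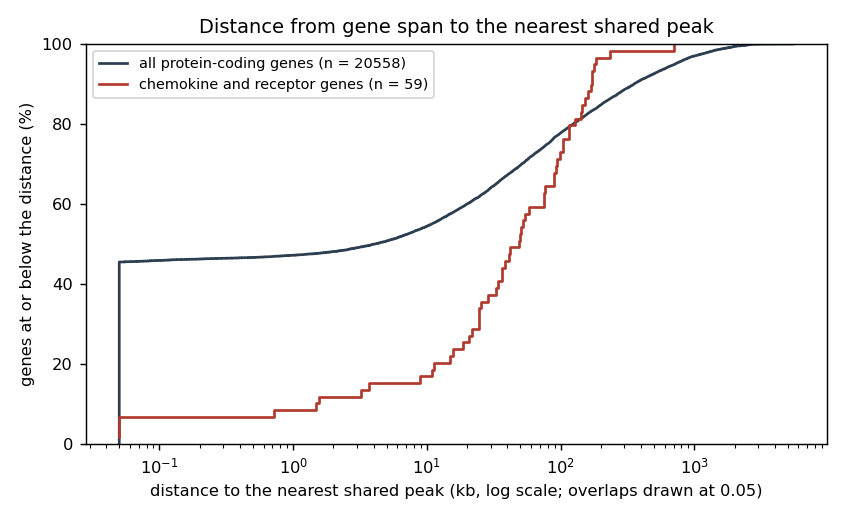
Cumulative curves give the percentage of genes (y axis) whose nearest shared peak lies within the distance on the x axis (kb, log scale, with overlaps drawn at 0.05 kb), for the 59 chemokine and receptor genes (red) and 20558 protein-coding genes (dark). The red curve starts at 6.78% and the dark one at 44.8%, and the curves cross beyond 100 kb.

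Chemokine and receptor genes are short, and short genes were called less often. Their median length was 5.45 kb against 17.6 kb for all genes. Up to 5 kb, 1 of 26 members and 23.3% of all genes were called at an end. From 5 to 20 kb these were 2 of 28 members and 43.1% of genes, and above 20 kb 0 of 5 and 46.4%. Members at the share of their own length class would number 20.5 of 59 at gene ends and 20.7 in bodies, where 3 and 4 were observed. The part of gene length in the low counts was not tested.

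The promoters of chemokine and receptor genes are poor in CpG, and CpG-poor promoters were called less often. The observed to expected ratio of CpG in the promoter window, which corrects for base composition, had a median of 0.23 over 45 members, 0.60 over all 16457 genes with a promoter, 0.81 over genes called at an end and 0.32 over the others. Below a ratio of 0.25 lay 26 of 45 members (57.8%) and 26.9% of all genes. In that class 7.04% of all genes and 1 of 26 members, Ccl20, were called. From 0.25 to 0.5 the call was made at 19.8% of genes and 0 of 9 members, from 0.5 to 0.75 at 51.0% of genes and 2 of 6 members (Cxcl12 and Xcr1), and above 0.75 at 70.7% of genes and 0 of 4 members. Those 4 were Cxcr4 (0.77), Cxcl14 (0.77), Ccl21b (1.17) and Ccl25 (1.28). The Ccl21b window depends on an annotated span of 83.7 kb, whereas its copies Ccl21a and Ccl21d span 1.13 kb each and have a ratio of 0.24. The Ccl25 window also covers the start of Elavl1. At the share of its own CpG class the group would number 9.50 of 45, where 3 were observed. These calls are at either end of a gene, and Ccl20 and Xcr1 were called at their 3′ ends, so that within 1000 bp of a RefSeq start 1 of 45, Cxcl12, was called. A share by CpG class was not computed for starts alone, and the part of CpG content in the low count was not tested.

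**Figure D5:**
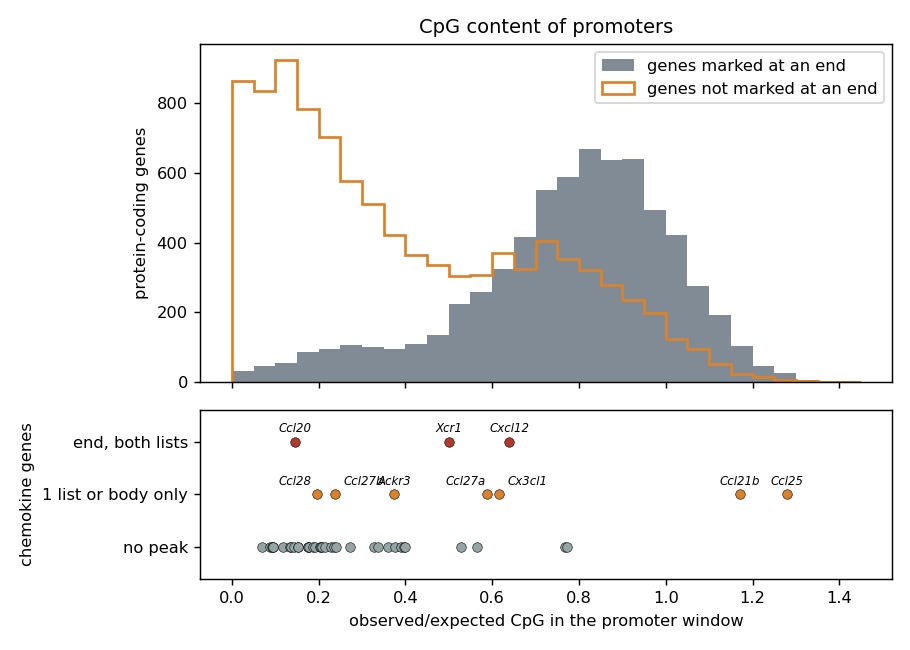
The upper panel gives histograms of the observed/expected CpG ratio of promoters for protein-coding genes called at an end in both lists (filled) and not called (line), and the lower panel places the 45 chemokine and receptor genes with a promoter on the same axis by their peaks. The called genes gather around a median of 0.81 and most chemokine genes lie below 0.25.

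All 3 motifs searched matched a larger share of member promoters than of all promoters, without a test of the differences. The interferon response element-like motif did so with only 3 members. Each motif was searched on its own on both strands. The kappa B-like motif given above matched the promoters of Ccl1, Ccr3, Cxcl1, Cxcl2, Cxcl3 and Cxcl10 (6 of 45, 13.3%) and 1.42% of all promoters. Over all genes called at an end the share was 1.29%, close to that of all promoters. None of the 6 members had a peak at an end or a shared peak in the body, in a group where 79.7% had no peak. The interferon response element-like motif (TTTC, 2 bases of any kind, TTTC) matched Ccl19, Cxcl10 and Cxcl14 (6.67%, against 3.42% of all promoters), and TATAAA matched 13 members (28.9%, against 13.5%). Over all genes called at an end these motifs matched 2.66% and 6.37%, respectively. Of the members with TATAAA, Xcr1 was called at an end in both lists, and Ackr3 and Cx3cl1 had a gene-end peak in list 2. The Xcr1 match was on the reverse strand alone. A match describes letters in this window and is not a bound site.

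Genes that act downstream or upstream of chemokines were counted beside them. Of 27 effectors of chemokine receptor signalling, 14 were called at an end (51.9%), read beside the 40.3% of all genes. Among them were the receptor kinase gene Grk5 (folds 6.57 in list 1 and 5.76 in list 2), the transcription factor gene Stat3 (6.15 and 5.06) and Gnai2, an inhibitory G protein subunit (6.23 and 4.32). The 13 not called were Gnai1, Gnai3, Gng2, Grk3, Arrb1, Plcb2, Prex1, Dock2, Elmo1, Vav1, Rac2, Pik3cg and Pik3r5. Of 23 regulators of inflammatory transcription, 18 were called (78.3%), led by Cebpb (7.89 and 6.82), the NF-κB subunit gene Nfkb1 (8.34 and 5.49) and the stress-induced factor gene Atf3 (8.31 and 4.52). The NF-κB genes Rela, Rel and Relb and the inhibitor gene Nfkbia were called as well, while Nfkb2, Ikbkb, Hif1a, Irf9 and Cebpd were not.

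Other cytokine genes and developmental ligand families were counted in the same way. Of 36 other cytokine and receptor genes, 10 were called (27.8%), among them Csf1 (6.83 and 5.33), Il6ra (3.32 and 7.30) and the interferon receptor gene Ifnar1 (3.40 and 6.35). Of these 10 genes Csf1 and Il15 encode ligands and the other eight receptor chains. Both ligands, such as Il1b, Il6, Tnf and Ifng, and receptors, such as Il1r1, Tnfrsf1a, Il4ra and Il10ra, were among the genes not called. Wnt ligands and frizzled receptors were called at 13 of 29 (44.8%), with Wnt11 at 7.95 and 4.89, and BMP, TGF-beta, activin receptor and GDF genes at 15 of 38 (39.5%), with Tgfb1 at 9.45 and 7.20. The Wnt and BMP lists were taken by symbol, without a check that each gene encodes a ligand or receptor. Bmp1 and Bmp2k are among the genes called in the BMP list. Differences between these lists and the chemokine genes were not tested.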

How the data were processed

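Deposited peak lists, 1 for each of 2 samples, were analysed. Per the submitters' processing notes FastQC and Bowtie2 were used with the mm10 build. Not given in the sources used here were the peak caller, the control library and the filters. The fold that the authors deposited is a linear enrichment ratio, taken where the peak is highest. Both the p-value and the q-value were deposited as −log10, and the score in the deposited lists equals the −log10 p times 10 to within 1 in every peak. All are the authors' values and only describe or rank peaks within a list. Of the peak numbers of list 1, 15 have no peak, and none falls beside a scored chemokine or receptor gene. The other genes named were not checked for this.

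Gene spans and promoters came from RefSeq tables for GRCm38.p6 (coordinates 1-based). Genes with scaffold coordinates were left out, and 1 gene is counted but not reported by name here. Strand was known for the 45 genes with a promoter. Python 3.11.15, pandas 2.3.3, scipy 1.17.1 and matplotlib 3.10.9 were used, and overlap meant at least 1 bp. Reads at a summit were recovered by finding the whole number whose fold and Poisson tail give the deposited values. This worked within 0.001 on the −log10 scale in 99.9% of peaks of each list, taking list 2 reads as scaled by 0.618, a factor found by scanning. Calls and recovered reads were tested on simulated data. Total read depth is unknown.

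Members, gene lists and rules were chosen with earlier results of these data known. Named were all members, with their peaks or lack of them, the nearest neighbour genes, and up to 3 genes of each other list by summed rank of fold. No test was run: genes are not replicates, and counts are read beside the share of all protein-coding genes. The CpG ratio was taken at the 5′-most start of each gene. Alternatives changed the window, threshold, overlap and lists used.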

Additional observations from a re-analysis of the deposited data

How the results depend on the processing

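The counts of 3 genes called at an end, 2 called by the nearer gene and 4 with a shared body peak stayed the same at a minimum −log10 p of 5 or −log10 q of 2, in the upper 50% of each list by fold, with an overlap of 100 bp and without the Ccl21 and Ccl27 copies, an alternative chosen after seeing the data. With a 500 bp window they were 2 at an end and 1 by the nearer gene (37.8% and 32.8% of all genes). With a 3000 bp window they were 6 and 4 (44.7% and 37.5%), Ackr3, Ccr10 and Cxcr5 being added at an end. Leaving out each sample in turn gave 3 to 11 genes at an end, 2 to 9 by the nearer gene and 4 to 9 with a body peak. The higher counts come from list 2 alone, where 48.0%, 42.3% and 55.6% of all genes were called. In the RefSeq promoter window 0 of 45 genes were called (38.7% of all genes with a promoter), and within 1000 bp of RefSeq starts, also chosen after seeing the data, 1, Cxcl12 (42.2%). At a −log10 p of 5, Wnt and frizzled genes fell from 13 to 8 called and leukocyte markers from 1 to 0. The depth of the lists cannot show weak marks, and a gene without a peak is not shown to lack the mark. No paired analysis was possible because there is 1 group.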

Other observations

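Chemokine system genes outside the naming rule gave the same picture. Xcl1, the ligand of Xcr1, the platelet chemokine genes Pf4 and Ppbp inside the chromosome 5 cluster, and Cxcr3, the receptor of Cxcl9 and Cxcl10 on chromosome X, had no peak at an end or in the body in either list. For Pf4 and Ppbp this repeats the finding that their cluster held no peak, and Cxcr3 lies outside the chromosomes of the comparison. Ccrl2, a receptor-like gene, had a gene-end peak in list 2 alone with a fold of 2.81 and a −log10 p of 2.96.

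The list 2 peak between Elavl1 and Ccl25 was among 202 list 2 peaks on chromosomes 1 to 19 with a −log10 p at least as high, and 33 of those had no overlapping list 1 peak. At the Fyco1 start beside Xcr1 the recovered reads were 38 in list 1 and 73 in list 2, while at Ccl28 they were 26 and 22 and at Cxcl12 14 in both lists.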
